A study of Mus musculus with 43 samples.

Results

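Of 43 libraries in which the mRNA of epididymal fat from male mice was sequenced, SZ-A 600 library 6 and SD library 4 held RNA of an epithelium with motile cilia beside that of fat. They are the 2 libraries with Foxj1 above 100 CPM (counts of a gene per 1000000 counts of its library), and they were set against the other 8 SZ-A 600 and 6 SD libraries. The profile described here consists of the 524 genes, of 56748 in the count table, that had more than 10 CPM in both libraries and more than 20 times the median of those 14 others in both. The genes were chosen by these values, so the excess itself is a description and was not tested.

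The study holds 7 libraries of mice whose standard diet held 10% fat (SD) and 10 of mice on a diet with 60% fat (HFD). The others are of mice on that 60% fat diet given SZ-A daily, 9 at 200 mg/kg (SZ-A 200), 8 at 400 mg/kg (SZ-A 400) and 9 at 600 mg/kg (SZ-A 600). SZ-A is a preparation of alkaloids from Ramulus Mori (Sangzhi), the twig of the mulberry. The sources used here do not give strain or age. The labels number the samples within each group and name no litter or cage, so any p-value below measures spread between libraries, which may be technical.

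Motile cilia are whip-like projections whose core, the axoneme, is a ring of doublet microtubules around a central pair. Dynein arms on the doublets slide them past each other, radial spokes and nexin links turn the sliding into bending, and Foxj1 is the transcription factor that switches on the genes for these parts. In the male tract, multiciliated cells line the efferent ducts, which carry sperm from the testis to the epididymis, while most of the epididymis bears stereocilia without an axoneme. The nonciliated cells of the efferent ducts take up most of the testicular fluid through a brush border, under control of estrogen receptor alpha. The epididymal fat pad is attached to the epididymis, near which these ducts run.

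All 43 libraries held between 32716294 and 44259619 counts, with 32716294 counts in SZ-A 600 library 6 and 34023035 in SD library 4. A gene without a count may have had up to 3 counts there, which is 0.0917 CPM in SZ-A 600 library 6 and 0.0882 CPM in SD library 4; such limits cover counting error alone. Another 3 libraries bear on the profile: SZ-A 400 library 6 held 27389 CPM of vas deferens marker genes and 26890 CPM of smooth muscle marker genes, SZ-A 400 library 3 held 10828 CPM of squamous epithelium marker genes, and SD library 1 held low levels of epididymal genes. The libraries also fall into 22 with less and 21 with more small noncoding RNA, and both SZ-A 600 library 6 (0.0191% of counts) and SD library 4 (0.0148%) lie among the 21 with more. In bulk tissue, fewer cells of a type and less RNA per cell cannot be told apart.

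The 524 genes together made up 4.14% of the counts of SZ-A 600 library 6 (95% exact binomial interval 4.13% to 4.15%) and 2.67% of those of SD library 4 (2.67% to 2.68%), which is 41418 and 26722 CPM. Their sum was 247 to 481 CPM in the other 8 SZ-A 600 libraries (median 333) and 277 to 1413 CPM in the other 6 SD libraries (median 392). SD library 1 gave that highest value, and the next SD library had 444 CPM. Outside these groups, the sum was 355 to 631 CPM in HFD libraries (median 409), 245 to 608 CPM in SZ-A 200 libraries (median 401) and 290 to 14366 CPM in SZ-A 400 libraries (median 475), where libraries 6 and 3 were the highest with 14366 and 3655 CPM. The sums of SZ-A 600 library 6 and SD library 4 lay far from the range of their own groups, and also above every library of the other groups. Each gene was chosen for high values in these 2 libraries, so the distance follows from the choice and nothing is read from it.

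**Figure D1:**
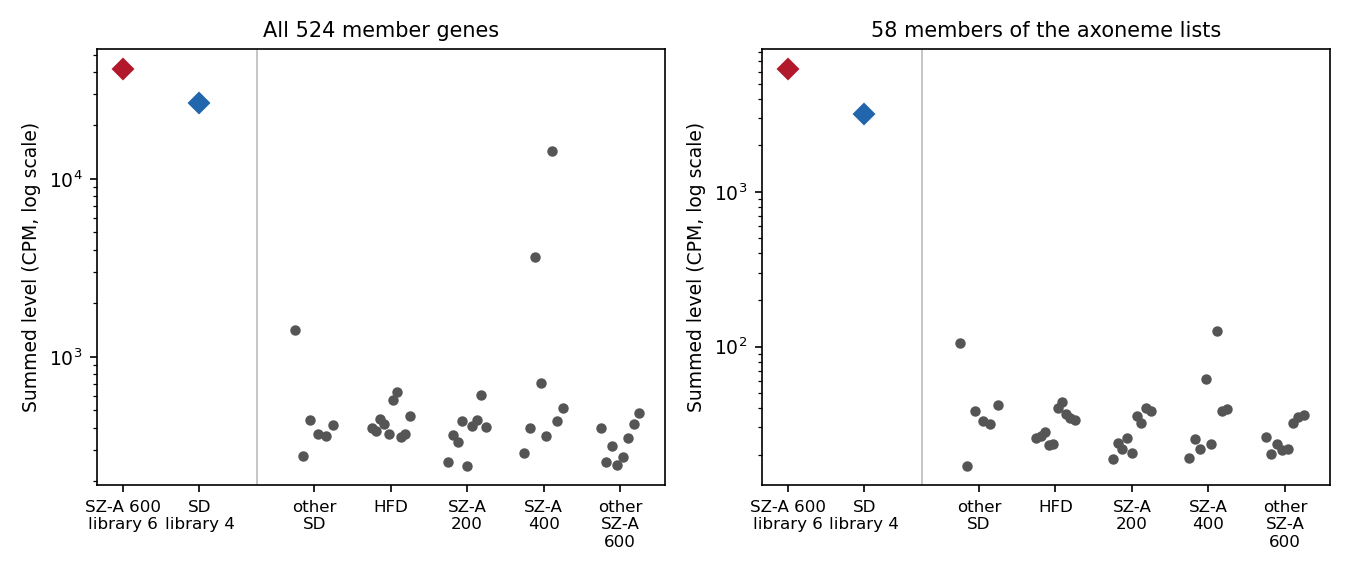
Summed CPM (log axis) of the 524 genes (left panel) and of the 58 axoneme genes among them (right panel) in each of the 43 libraries, by group, with each point a library. SZ-A 600 library 6 and SD library 4 stand at 41418 and 26722 CPM on the left and at 6231 and 3198 CPM on the right, while SZ-A 400 library 6 stands at 14366 CPM on the left and only 126 CPM on the right.

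The 3 genes that mark the profile differed in how far they stood out. Foxj1, on chromosome 11, had 433 CPM (14154 counts) in SZ-A 600 library 6 and 274 CPM (9307 counts) in SD library 4. It lay between 0 and 0.0559 CPM in the other SZ-A 600 libraries, with a median of 0, and between 0.109 and 14.7 CPM in the other SD libraries, with a median of 0.228. The 14.7 CPM came from SD library 1, and SZ-A 400 library 4 with 3.99 CPM was the next highest of the whole series. Lrp2, which encodes megalin, the endocytic receptor of absorptive epithelia, had 418 CPM in SZ-A 600 library 6 and 377 CPM in SD library 4, against 0.101 to 7.84 CPM in the other SZ-A 600 libraries (median 2.66) and 0.308 to 8.95 CPM in the other SD libraries (median 1.39). Adgrg2, an adhesion G protein-coupled receptor of efferent duct and epididymal epithelium, had 1271 and 823 CPM in the same 2 libraries but also 12.7 to 44.05 CPM (median 34.1) in the other SZ-A 600 libraries and 66.3 to 96.8 CPM (median 86.8) in the other SD libraries. Adgrg2 was above all 14 others, yet it missed the 20-fold limit and is not among the 524 genes. Fat libraries without cilia genes thus held Adgrg2 RNA as well.

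The label of the profile was set against 8 efferent duct marker genes, of which 6 were above all 14 others in both libraries. Foxj1, which chose the libraries, and Lrp2, Pax8 and Slc9a3, which met the rule, are 4 of these 6, so the count is no independent check; Adgrg2 and Esr1 are the others. The exceptions were Aqp1, a water channel that endothelium also makes, with 844 CPM in SZ-A 600 library 6 and 910 CPM in SD library 4 within the 231 to 956 CPM of the others, and Cubn, the endocytic partner of megalin, with 1.71 and 2.88 CPM in the same 2 libraries. For scale, 29.0% of the 15381 genes with a mean over 1 CPM were above all 14 others in both libraries and 4.04% were below all 14. Every one of the 524 genes was above all 14, which the rule favours, and nothing is read from it. For 114 of them the median of the 14 others was 0.

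Among 20 regulators of ciliogenesis, 4 met the rule. Besides Foxj1, these were Trp73, the p53 relative that acts upstream of Foxj1, with 36.8 CPM in SZ-A 600 library 6 and 22.2 CPM in SD library 4; Gmnc (geminin coiled-coil), which starts the multiciliated cell programme, with 32.2 and 16.5 CPM; and Myb, which acts early in that programme, with 43.2 and 32.6 CPM. The highest value of the 14 others was 0.733 CPM for Trp73, 0.837 CPM for Gmnc and 1.23 CPM for Myb, each in SD library 1. Regulators that other cells use too stood out less: the X-box binding factor Rfx2 had 56.9 and 37.7 CPM against 4.54 to 8.42 CPM in the 14 others, and Rfx3 had 52.9 and 37.8 CPM against 2.45 to 9.12 CPM. Genes of the brief phase in which centrioles multiply were low. Mcidas had 0.489 and 0.500 CPM, Ccno had 8.13 and 8.29 CPM, and Deup1, a scaffold of the centriole-forming deuterosome, had 5.96 and 6.17 CPM, each still above all 14 others.

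Axoneme genes formed a large block of the profile. Of 100 genes on 6 axoneme lists, 58 met the rule, and these 58 summed to 6231 CPM in SZ-A 600 library 6 and 3198 CPM in SD library 4. Their sum in the other libraries was 20.3 to 36.1 CPM for SZ-A 600 (median 24.8) and 17.0 to 105 CPM for SD (median 35.6), with SD library 1 the highest and 42.1 CPM in the next. In HFD libraries it was 23.0 to 43.7 CPM.

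Outer dynein arms, which drive most of the beat, gave 8 of 12 list genes, and all 12 were above all 14 others. The heavy chain Dnah5 had 190 CPM in SZ-A 600 library 6 and 161 CPM in SD library 4; its median was 0 in the other libraries of both groups and its highest value there 3.87 CPM. Dnah11, another outer arm heavy chain, had 197 and 131 CPM against at most 0.890 CPM, and Dnah9, the chain of the outer part of the cilium, had 134 and 102 CPM against at most 3.48 CPM. Dnai1, an intermediate chain that holds the heavy chains together, had 27.0 and 14.3 CPM. Inner dynein arms and their rulers, which set the shape of the beat, gave 13 of 16 genes. The tether gene Cfap44 was at 591 CPM in SZ-A 600 library 6 and 256 CPM in SD library 4, with at most 3.30 CPM in the 14 others, and its partner Cfap43 at 219 and 107 CPM. The single-headed heavy chain Dnah12 had 317 and 130 CPM against at most 1.26 CPM, and the light chain Dnali1 had 88.6 and 42.3 CPM.

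Radial spokes and nexin links gave 12 of 20 genes. Rsph1, a spoke head gene, had 97.0 CPM in SZ-A 600 library 6 and 47.0 CPM in SD library 4, against 0.0545 to 6.04 CPM in the 14 others. Rsph4a, also of the spoke head, had 85.6 and 63.7 CPM, Rsph10b 88.5 and 42.7 CPM, and Drc7, of the nexin-dynein regulatory complex, 93.0 and 46.5 CPM. The central pair gave 13 of 17 genes, with Cfap65 the farthest out at 670 CPM (21905 counts) and 255 CPM (8676 counts), against at most 4.08 CPM in the 14 others. Ak7, an adenylate kinase of the cilium, had 113 and 73.5 CPM, and Hydin, the giant projection protein of the central pair, had 154 and 106 CPM against 0.341 to 2.72 CPM. Among proteins inside the doublets, 9 of 20 genes met the rule and all 20 were above the 14 others; Tekt1, a tektin filament gene, had 77.5 and 34.7 CPM and Enkur had 61.9 and 30.4 CPM.

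Factors that preassemble dynein arms in the cytoplasm gave 3 of 15 genes, namely Zmynd10 (35.2 CPM in SZ-A 600 library 6 and 19.4 CPM in SD library 4), Daw1 (35.8 and 12.3 CPM) and Dnaaf1 (22.4 and 15.2 CPM). None of 26 intraflagellar transport genes, whose products also build the primary cilium of most cells, met the rule. Even so, 21 of the 26 were above all 14 others, and the list summed to 1266 CPM in SZ-A 600 library 6 and 1005 CPM in SD library 4, against 368 to 487 CPM. Ift88, a core particle subunit, had 69.0 and 45.9 CPM against 6.40 to 10.4 CPM. In the other libraries these transport genes were thus well above 0, unlike most axoneme genes.

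**Figure D2:**
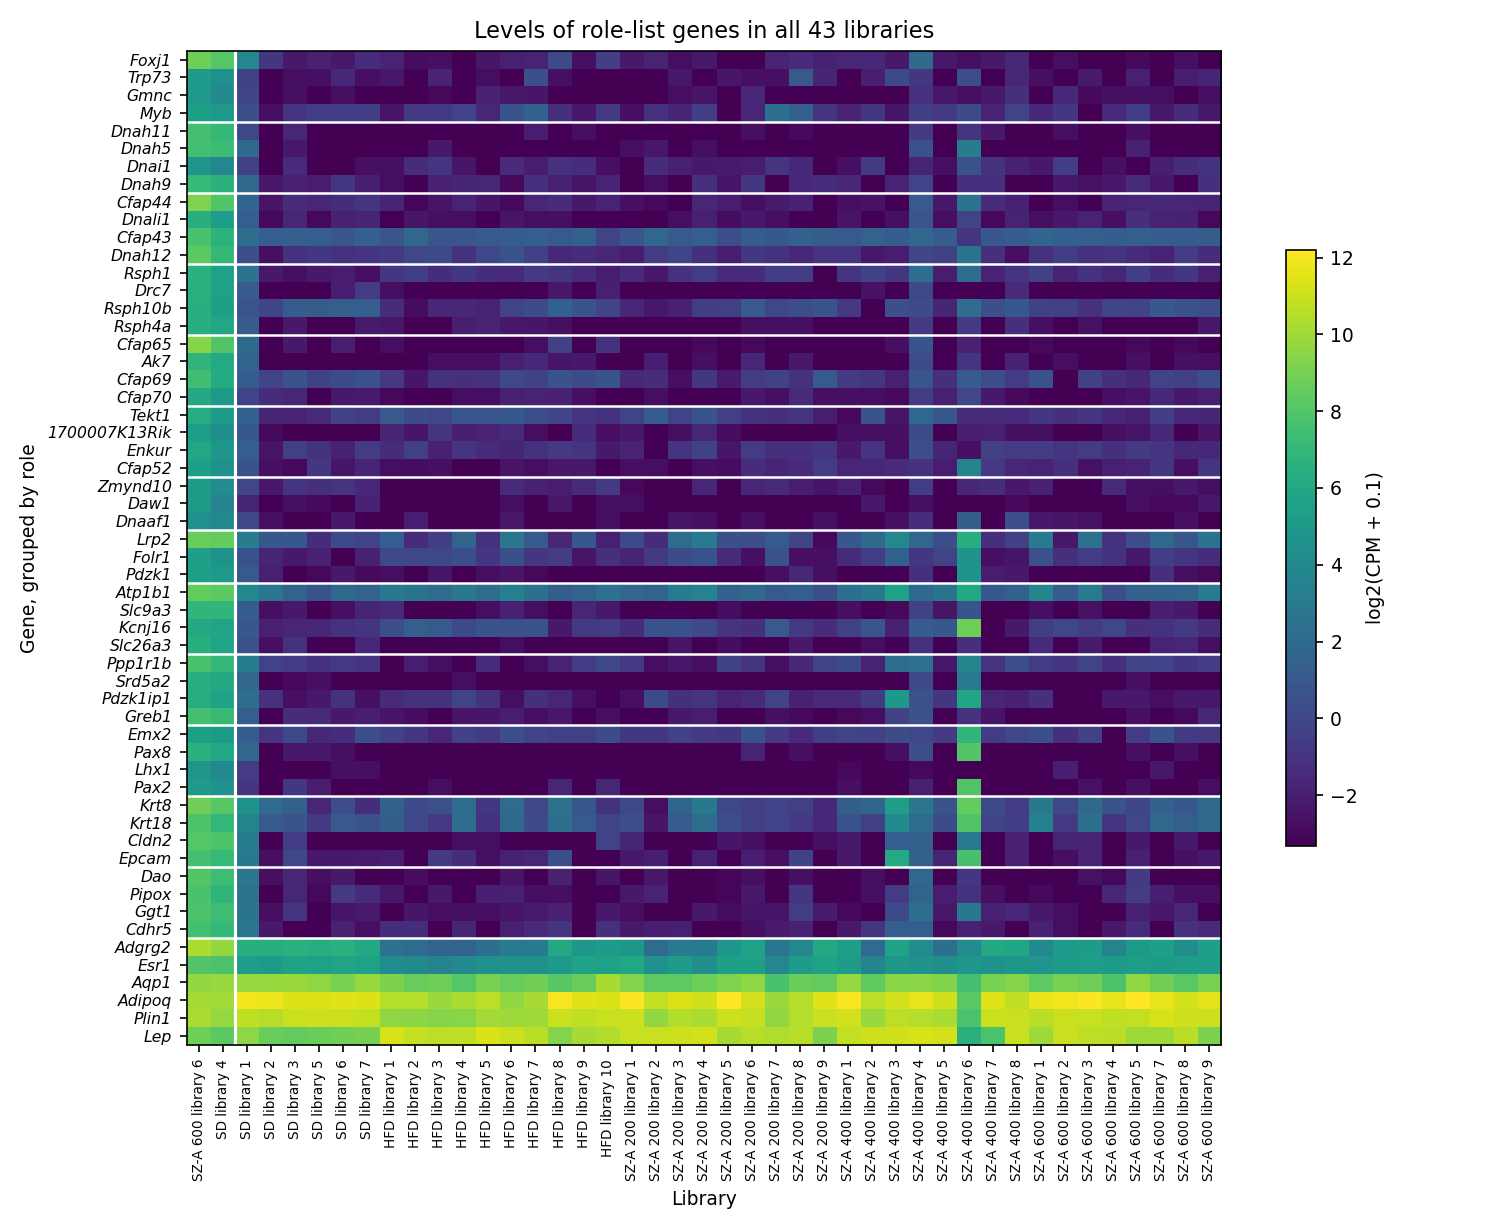
Level of up to 4 members of each role list (lines, grouped by list) in all 43 libraries (columns), as log2(CPM + 0.1), with Adgrg2, Esr1, Aqp1 and the adipocyte genes Adipoq, Plin1 and Lep at the bottom. SZ-A 600 library 6 and SD library 4, at the left, are high in every role block, whereas SZ-A 400 library 6 is high for most duct transcription factor and junction genes shown and low for most axoneme genes. SZ-A 400 library 6 is also high for the transport gene Kcnj16 (440.5 CPM), Lrp2 (88.7 CPM), Atp1b1 (68.4 CPM) and Pdzk1ip1 (56.3 CPM).

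Promoter sequence was read for the members that could be matched by symbol to RefSeq promoters of the GRCm38.p6 build, which cover 250 bases before to 50 after each start. This matched 390 of the 524 genes and 44 of the 58 axoneme genes. RFX factors, which act with Foxj1 on cilia genes, bind the X-box, an inverted repeat that contains GTTGCC. On either strand, GTTGCC was in a promoter of 20 of the 44 axoneme genes (45.5%), 85 of the 346 other members (24.6%) and 14.1% of all 27025 genes in the table. The longer form GTTGCCATG, each copy of which also counts as GTTGCC, was found for only 2 of 44 axoneme members (4.55%). It was found for 9 of 346 other members (2.60%) and 0.877% of all genes. The full X-box with both arms was found for 0 of 44, 5 of 346 (1.45%) and 0.529%. The forkhead letters TGTTTAC, of the type that Foxj1 binds, were found for 2 of 44 (4.55%), 25 of 346 (7.23%) and 4.05%. The palindromic estrogen response element was found for 1 of 390 members (0.256%) against 0.074% of all genes. Median GC content was 54.7% in promoters of axoneme members, 57.3% in those of other members and 52.7% in all. Matches were also found in promoters of other members that are not printed, among them Hnf4a, Plxnb1 and Nav2. Windows of 60 bases show the match in 5 promoters, picked because the genes encode ciliary proteins, with the matched letters in capitals. In Cfap161 the match is on the other strand, so it reads CATGGCAAC.
Sntn (chr14:13670787-13670846, + strand): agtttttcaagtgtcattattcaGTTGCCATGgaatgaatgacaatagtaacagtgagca
Catip (chr1:74362075-74362134, + strand): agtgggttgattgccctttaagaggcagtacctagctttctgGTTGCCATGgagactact
Cfap74 (chr4:155409180-155409239, + strand): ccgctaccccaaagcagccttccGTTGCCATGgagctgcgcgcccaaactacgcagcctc
Cfap161 (chr7:83794845-83794904, - strand): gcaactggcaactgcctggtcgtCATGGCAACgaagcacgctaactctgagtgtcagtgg
Pifo (chr3:106001498-106001557, - strand): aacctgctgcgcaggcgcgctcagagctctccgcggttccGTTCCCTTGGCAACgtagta

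The match ends 58 bases before the start in Sntn (sentan, of the ciliary tip), 10 in Catip, 29 in Cfap74 (a central pair protein), 34 in Cfap161 and 7 in Pifo, which carries a full X-box. Sntn had 63.4 CPM in SZ-A 600 library 6 and 32.0 CPM in SD library 4, with 0 CPM in each of the other 8 SZ-A 600 libraries and at most 2.25 CPM in the other SD libraries. Cfap74 had 139 and 58.2 CPM in the 2 libraries, Catip 85.1 and 37.8 CPM, Pifo 24.1 and 13.8 CPM, and Cfap161 23.7 and 12.6 CPM. These matches are letters in a window and were not tested as binding sites.

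Beside cilia, the profile held genes of an absorptive brush border. A list of 31 brush border and kidney-tubule-type metabolic genes, drawn up after the values were seen, gave 23 members. Its sum, 4175 CPM in SZ-A 600 library 6 and 3486 CPM in SD library 4, lay within the 3166 to 5147 CPM of the other SZ-A 600 libraries and below the 5592 to 7556 CPM of the other SD libraries; Pck1, which adipocytes also make, gave 1637 and 1698 CPM of it and was below all 14 others (2730 to 7435 CPM). Dao, D-amino acid oxidase, had 271 CPM in SZ-A 600 library 6 and 168 CPM in SD library 4, and Pipox, which oxidizes pipecolic acid in peroxisomes, 216 and 113 CPM. Ggt1, the membrane enzyme that splits glutathione, had 238 and 168 CPM, and Cdhr5, a cadherin that links microvilli, 185 and 130 CPM. In the 14 others these 4 genes reached at most 7.06, 5.91, 6.23 and 6.72 CPM, all in SD library 1. Cdh16, the kidney-specific cadherin, had 219 and 171 CPM, the amino acid transporter gene Slc7a9 143 and 79.9 CPM, and Vil1 (villin, which bundles the actin of microvilli) 80.3 and 58.5 CPM. The transcription factor Hnf4a, known for liver, gut and proximal tubule, had 137 CPM in SZ-A 600 library 6 and 116 CPM in SD library 4, and no count in SZ-A 400 library 6.

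Genes of endocytosis and of ion transport made up a smaller group. Of 12 endocytosis genes, 3 met it: Lrp2, the folate receptor gene Folr1 (43.8 CPM in SZ-A 600 library 6 and 25.4 CPM in SD library 4) and the scaffold gene Pdzk1 (45.0 and 33.8 CPM). In all, 7 of the 12 were above all 14 others and 2 were below all 14, namely Lrpap1, a chaperone of megalin, with 138 and 136 CPM against 151 to 258 CPM, and Ehd1, of recycling vesicles, with 127 and 146 CPM against 153 to 229 CPM. Summed over its 12 genes, the list came to 2043 CPM in SZ-A 600 library 6, within the 887 to 2149 CPM of the 14 others, and to 2207 CPM in SD library 4, above them. Of 24 ion and water transport genes, 5 met it, although 17 were above all 14 others. Atp1b1, the beta subunit of the sodium pump, had 366 and 318 CPM against 1.21 to 14.5 CPM. Slc9a3, the sodium-proton exchanger through which efferent ducts take up sodium, had 117 CPM in SZ-A 600 library 6 and 117 CPM in SD library 4, against at most 2.25 CPM. The anion exchanger gene Slc26a3 had 90.4 and 53.5 CPM, the chloride channel gene Cftr 36.6 and 37.6 CPM, and the potassium channel gene Kcnj16 65.2 and 54.1 CPM. Several of these genes were not particular to the 2 libraries. SZ-A 400 library 6 had 440.5 CPM of Kcnj16, 88.7 of Lrp2, 68.4 of Atp1b1, 26.3 of Folr1 and 25.8 of Pdzk1. It had only 1.57 CPM of Slc9a3 and 0.349 CPM of Slc26a3. Markers of the proton-pumping clear cells of the epididymis were at or near 0: Atp6v1b1 had no count in either library, and Foxi1 had none in SZ-A 600 library 6 and 0.0588 CPM in SD library 4.

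Steroid-related genes gave 5 members of 12. Ppp1r1b (DARPP-32, an inhibitor of protein phosphatase) had 220 CPM in SZ-A 600 library 6 and 126 CPM in SD library 4, and the androgen-regulated protease gene Tmprss2 had 76.3 and 50.2 CPM. Srd5a2, which turns testosterone into dihydrotestosterone, had 88.3 and 66.0 CPM against at most 3.40 CPM in the 14 others, Greb1, an estrogen-induced cofactor of the estrogen receptor, 190 and 147 CPM against at most 2.38 CPM, and Pdzk1ip1, a small membrane protein, 80.1 and 48.5 CPM. Pdzk1ip1 also had 56.3 CPM in SZ-A 400 library 6 and 30.7 CPM in SZ-A 400 library 3. In SZ-A 400 library 6, Ppp1r1b had 12.8 CPM, Srd5a2 8.29 CPM and Greb1 0.378 CPM. Esr1, estrogen receptor alpha, was 265 and 236 CPM against 27.3 to 54.7 CPM, and so above all 14 without reaching 20-fold. The progesterone receptor gene Pgr had 1.96 and 1.65 CPM.

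Of 21 transcription factors that pattern the mesonephric ducts, 5 met the rule. Among them, Pax8 had 95.3 CPM in SZ-A 600 library 6 and 59.9 CPM in SD library 4, Emx2 had 43.7 and 34.6 CPM, Pax2 had 34.1 and 23.4 CPM, and Lhx1 had 29.6 and 14.9 CPM. In the other 14 libraries each of these 4 stayed at or under 3.35 CPM. SZ-A 400 library 6, which held vas deferens, epididymal and smooth muscle marker RNA, shared 3 of these, but it had no count of Lhx1. It had 263 CPM of Pax8, 121 of Emx2 and 250 of Pax2, and the tissue these came from was not tested. Factors of the lower tract separated SZ-A 400 library 6 from the 2 libraries the other way. Hoxd13, a factor of the hind end of the tract, had no count in SZ-A 600 library 6 or SD library 4 and 19.9 CPM in SZ-A 400 library 6, and Gata3 had 0.856 and 2.06 CPM in the 2 libraries and 152 CPM in SZ-A 400 library 6.

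Epithelial junction and keratin genes gave 19 of 31 members, with 27 of 31 above all 14 others. Krt8, the simple-epithelium keratin, had 455 CPM in SZ-A 600 library 6 and 288 CPM in SD library 4, and its partner Krt18 had 234 and 126 CPM. Cldn2, a claudin that lets sodium and water pass between cells of leaky epithelia, had 282 and 247 CPM against at most 9.03 CPM in the 14 others, and 8.02 CPM in SZ-A 400 library 6. Claudins that tighten junctions were mixed. Cldn3 had 57.0 and 34.7 CPM against 225 CPM in SZ-A 400 library 6, and Cldn7 had 69.4 and 35.2 CPM against 111 CPM there, and both met the rule. Cldn4 had 2.96 and 2.15 CPM against 165 CPM in SZ-A 400 library 6, and Cldn8 had 0.183 and 0.118 CPM against 215 CPM there. The surface genes Epcam (198 and 137 CPM) and Prom1 (413 and 338 CPM) and E-cadherin, Cdh1 (96.2 and 81.6 CPM), were high in both and also in SZ-A 400 library 6 (209, 249 and 259 CPM). The cadherin Cdh3 was among the few genes lower in SZ-A 600 library 6 (44.2 CPM) than in SD library 4 (59.9 CPM).

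Per transcript length, in the deposited FPKM (fragments scaled by transcript length and library size), the 10 highest genes of the profile mixed these groups. Mmp7, a matrix metalloproteinase of ducts and glands, led with 223 FPKM in SZ-A 600 library 6 and 147 FPKM in SD library 4, followed by Gstm7, a glutathione transferase, with 218 and 133 FPKM. Krt8 had 193 and 114 FPKM, Calml3, a calmodulin-like protein of epithelia, 147 and 112 FPKM, and Lcn2, a lipocalin that binds siderophores, 145 and 107 FPKM. Cuzd1 had 110 and 116 FPKM, Foxj1 137 and 81.0 FPKM, Tmem212 146 and 65.0 FPKM, Krt18 136 and 68.3 FPKM, and Atp1b1 98.9 and 80.2 FPKM. The median FPKM of the 14 others was at most 2.93 for each of the 10, that of Gstm7. Of these 10, Krt8, Krt18, Cuzd1 and Calml3 were also high in a library with another epithelium. Krt8 had 455 CPM in SZ-A 600 library 6 and 288 CPM in SD library 4, against 370 CPM in SZ-A 400 library 6, and Krt18 had 234 and 126 CPM, against 257 CPM there. Cuzd1 had 298 CPM in SZ-A 600 library 6 and 336 CPM in SD library 4, against 263 CPM in SZ-A 400 library 6, and Calml3 had 251 and 205 CPM, against 220 CPM in SZ-A 400 library 3.

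Markers of neighbouring tissues were checked as summed CPM of fixed lists. The initial segment list of the epididymis had 699 CPM in SZ-A 600 library 6 and 534 CPM in SD library 4 against 1.30 to 102 CPM in the 14 others, but Lcn2 and Ggt1, which other epithelia make, gave nearly all of it; Lcn9 had no count in either library and Lcn8 had 0.275 CPM in SZ-A 600 library 6 and none in SD library 4. The caput list had 117 and 129 CPM, mostly Adam7 with 95.7 and 117 CPM, while the caput gene Gpx5 had no count in either. For corpus and cauda the sums, 15.5 and 29.4 CPM, were within the 5.45 to 84.2 CPM of the others, and SZ-A 400 library 6 had 11458 CPM. The vas deferens list had 123 and 120 CPM, nearly all Slc9a3. Smooth muscle genes, at 1107 and 1108 CPM, were within the 614 to 1731 CPM of the others, and squamous genes, at 7.64 and 8.44 CPM, within 3.74 to 41.0 CPM. Prostate and seminal vesicle genes were near 0, at 2.05 and 1.44 CPM against 0.478 to 1.86 CPM.

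Of 15 testis germ cell genes, 10 were above all 14 others, at low levels: Prm2, a protamine of sperm chromatin, had 5.96 CPM in SZ-A 600 library 6 and 9.70 CPM in SD library 4 against at most 1.23 CPM, and Smcp, of the sperm mitochondrial capsule, 2.87 and 11.8 CPM against at most 0.463 CPM. The list as a sum, 22.9 and 53.9 CPM, overlapped the 5.72 to 46.1 CPM of the others for SZ-A 600 library 6. Sertoli and Leydig genes summed to 153 and 157 CPM against 7.36 to 24.5 CPM, with Sox9 alone at 117 and 120 CPM, whereas Rhox5, Hsd3b1 and Hsd3b6 had no count in either library. Mesothelial genes summed to 363 and 432 CPM against 18.4 to 274 CPM. In that list Wt1 was at 5.17 CPM in SZ-A 600 library 6, within the 2.23 to 16.1 CPM of the others, and at 36.6 CPM in SD library 4, above them. Adipocyte genes were lower in both libraries, with 55300 and 42736 CPM against 77314 to 135882 CPM, and 11 of 20 were below all 14 others. B cell genes summed to 117 CPM in SZ-A 600 library 6 and 875 CPM in SD library 4, against 93.4 to 477 CPM, so SD library 4 alone lay above the range. The part of each of these cell types in the profile was not tested.

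**Figure D3:**
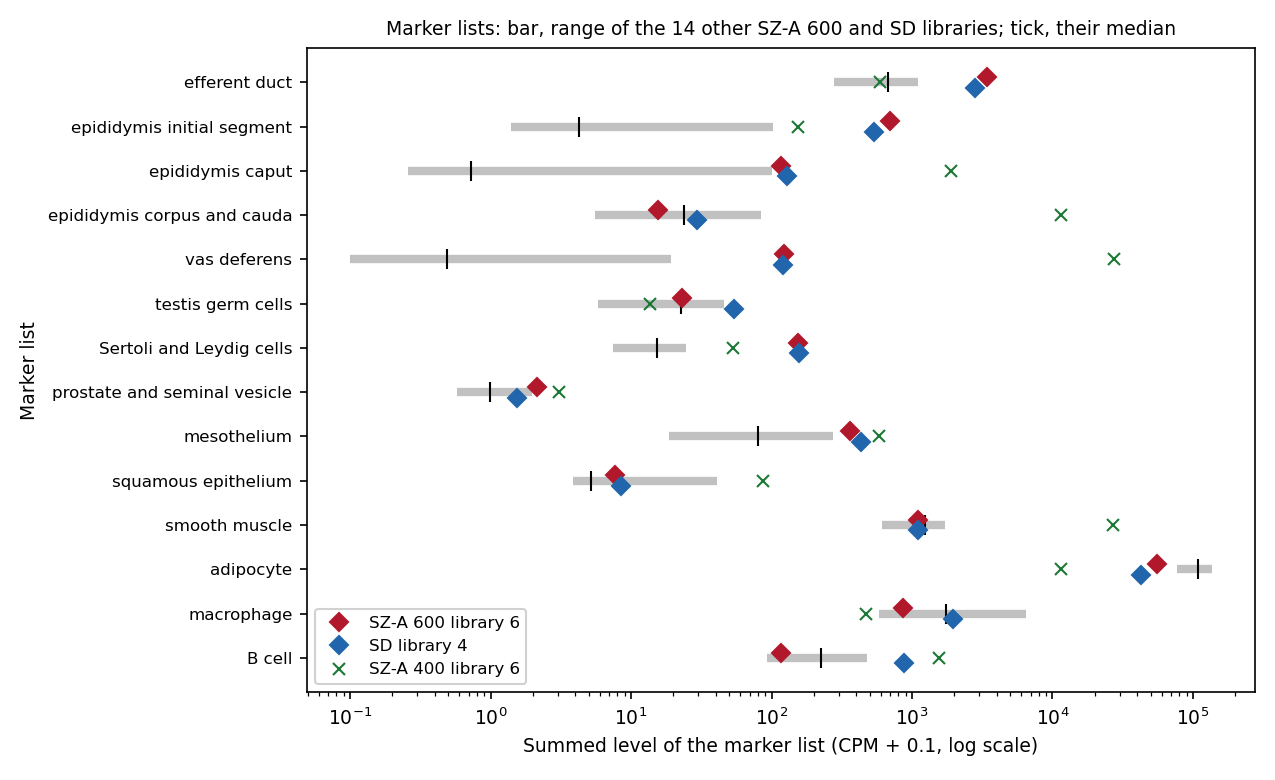
Summed CPM plus 0.1 (log axis) of each marker list in SZ-A 600 library 6 and SD library 4, and, as crosses, in library 6 of SZ-A 400, with grey bars for the range and ticks for the median of the 14 other SZ-A 600 and SD libraries. Efferent duct genes (3445 and 2799 CPM) lie above the bar in both libraries and adipocyte genes below it, while the high points of caput, corpus and cauda, vas deferens and smooth muscle belong to SZ-A 400 library 6.

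Most genes of the profile were higher in SZ-A 600 library 6 than in SD library 4. The ratio of CPM, SZ-A 600 library 6 over SD library 4, had a median of 1.57, with quartiles of 1.32 and 1.90 and a full range of 0.739 to 3.69, and it was under 1 for 21 of 524 genes. Axoneme genes had a higher median ratio, 1.90, than the remaining members, 1.54. By list the median was 2.07 for inner dynein arms, 1.97 for doublet proteins, 1.87 for spokes and nexin links, 1.81 for assembly factors, 1.77 for the central pair and 1.51 for outer arms, against 1.33 for endocytosis, 1.15 for transport, 1.45 for junctions and keratins, 1.497 for brush border genes and 1.59 for duct transcription factors. The lowest ratios were those of Cdh3 (0.739), Mfrp (0.766), Slc38a5 (0.772), Gfra1 (0.801) and Adam7 (0.821). Among the highest were those of T2 (3.69; 51.8 CPM in SZ-A 600 library 6 and 14.0 in SD library 4), Adamts20 (3.35), Daw1 (2.91) and the tubulin glutamylase gene Ttll6 (2.86; 53.4 and 18.7 CPM). With 1 library of each group, this ratio has no replicate, and library, diet and treatment cannot be told apart in it.

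**Figure D4:**
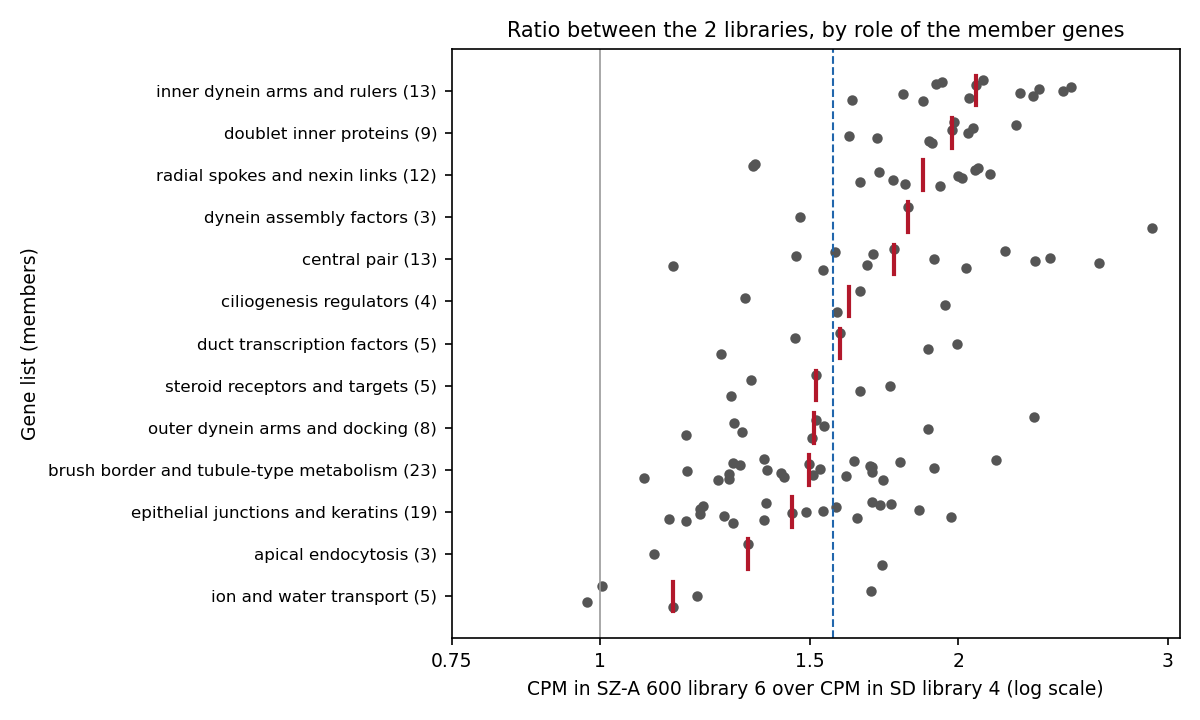
Ratio of CPM in SZ-A 600 library 6 over SD library 4 (log axis) for the members on each role list, with each point a gene and the dashed line the median of all 524 genes (1.57). Inner arm genes centre on 2.07 and transport genes on 1.15.

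At the edge of the level rule, the last genes inside were Asb11, Zswim5 and Dbpht2, each with 10.1 CPM in the lower of the 2 libraries, and the nearest outside were Tmem232 (9.91), 4833428L15Rik (9.85) and Tnnt2 (9.85). At the edge of the fold rule, Arl4c (20.2-fold), Dnai4 (20.5) and Cracdl (20.5) were inside, and Wnk4 (19.7), Kif9 (19.7) and Plekhg4 (19.6) outside. Alone, SZ-A 600 library 6 had 752 genes past both limits and SD library 4 had 552, so that the 524 shared genes are 69.7% of the list of SZ-A 600 library 6 and 94.9% of that of SD library 4. Of the 228 genes that passed in SZ-A 600 library 6 only, 194 had more than 5 CPM and 10-fold in SD library 4 as well. Of the 28 that passed in SD library 4 only, 9 did so in SZ-A 600 library 6.

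Other libraries shared parts of the profile. For them the limits were 10 CPM and 20 times the median of the remaining libraries of all groups, with the 2 libraries left out. SZ-A 400 library 6 had 590 genes past these limits, 147 of them among the 524 (28.1% of the profile and 24.9% of that library's own genes), including 2 of the 58 axoneme genes. Against the median of the 14 others, 148 of the 524 passed in that library. SZ-A 400 library 3 had 186, of which 44 were among the 524 (8.40% and 23.7%) and none was an axoneme gene. SD library 1 had 13, of which 8 were shared. Low levels told more of SD library 1: it held the highest value of the 14 others for 388 of the 524 genes (74.0%). It also had 26.1 CPM of Lcn8 and 57.3 CPM of Gpx5, genes of the initial segment and caput that SZ-A 600 library 6 and SD library 4 lacked or nearly lacked.

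As a set, 503 of the 524 genes (96.0%) were annotated as protein coding, against 89.0% of genes with a mean over 1 CPM, 15 were lncRNAs, 4 were unconfirmed transcripts and 2 were pseudogenes. Transcription factors made up 23 members (4.39%), against 6.63% of those genes. Chromosome 11 held 56 members (10.7% against 8.15%) and chromosome 4 held 54 (10.3% against 6.03%). The processed pseudogene Cbx3-ps8 and the lncRNAs antisense to other genes may share reads with them, since the sources used here do not give the strand setting of the counting. In all, 116 of the 524 genes are on a role list, so most of the profile is not covered by them.

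The 2 libraries weighed on the comparisons of the study, which were tested across all genes with edgeR's quasi-likelihood test and Benjamini-Hochberg adjustment over 20218 genes in all 43 libraries. A filter on low counts kept 379 of the 524 genes. In HFD against SD libraries, 256 genes of the profile were called at an adjusted p under 0.05, all lower in HFD (67.5% of those kept); of all genes, 31.7% were called, 13.3% lower and 18.4% higher. In SZ-A 600 against HFD libraries, 236 were called, all higher in SZ-A 600 (62.3%); of all genes, 11.6% were called, 5.12% higher and 6.47% lower. Between SZ-A 600 and SD libraries edgeR called none, with 0 at an unadjusted p under 0.05. Of all genes, edgeR called 3.36%, 2.01% higher and 1.36% lower. DESeq2 called 52 of 350 members there, against 1595 of 19042 genes. HFD libraries are shared by both comparisons with calls, and the genes were chosen for high values in 1 SD and 1 SZ-A 600 library, so these counts follow from the choice and nothing is read from them.

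In fits added after the data were seen, each of the 2 libraries was left out by itself. The genes were chosen for high values in both, so the choice favours such changes and nothing is read from these counts. Without SD library 4, edgeR called 10 members in HFD against SD libraries (29.5% of all genes), 274 in SZ-A 600 against HFD (12.7%) and 42 in SZ-A 600 against SD (5.87%). Without SZ-A 600 library 6 it called 294 in HFD against SD (33.9%), 0 in SZ-A 600 against HFD (22 at an unadjusted p under 0.05; 5.64%) and 243 in SZ-A 600 against SD (8.73%). The 42 were all higher and the 243 all lower in SZ-A 600, which the choice favours. In HFD against SD the 10 became 60 when SZ-A 600 library 6, which is in neither group, was left out as well. All groups share 1 estimate of the spread in these fits.

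The rule also asked for a low median in the 14 other SD and SZ-A 600 libraries. Fits without the 2 libraries, here and below, are thus not free of the choice of genes, in counts or directions. With both SZ-A 600 library 6 and SD library 4 left out, the filter kept 363 of the 524 genes. In HFD against SD libraries 60 were then called (16.5%, against 32.2% of all genes), 8 higher and 52 lower in HFD, against 18.1% higher and 14.1% lower of all genes; 52 of the 60 had also been called with all libraries. In SZ-A 600 against HFD libraries 8 were called, 2 higher and 6 lower, against 6.92% of all genes (2.2% higher and 4.72% lower). In SZ-A 600 against SD libraries 8 were called, all lower, against 6.4% of all genes (3.42% higher and 2.98% lower). Of the axoneme lists, outer arms, inner arms and the central pair then had 1 gene each lower in HFD, doublet proteins 2, and spokes and assembly factors none, while 7 of 14 brush border genes were lower; without SD library 1 as well, 1 of 13 brush border genes was higher and 1 lower. The 52 lower genes rested in part on SD library 1: without that library as well, 43 were called, 31 higher and 12 lower in HFD (31.7% of all genes, 18.2% higher and 13.5% lower), and 19 of the 43 were among the 60. In those fits 7 were called in SZ-A 600 against HFD (6.31% of all genes) and 9 in SZ-A 600 against SD (6.7%). Leaving out both SZ-A 400 library 3 and library 6 beside the 2 libraries gave 77 in HFD against SD (36.2%), 19 in SZ-A 600 against HFD (11.4%) and 23 in SZ-A 600 against SD (10.0%).

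The sets of libraries by small noncoding RNA differed as well. The 22 libraries with less of it hold neither of the 2 libraries, and their only SD libraries are SD library 1 and SD library 2. The genes of the profile summed to 1413 CPM in SD library 1 and 277 CPM in SD library 2. Within this set, HFD against SD called 151 members of 461 kept, 2 higher and 149 lower in HFD. Of all genes, 36.4% were called (17.5% higher and 18.8% lower). No fit of this set left out SD library 1, so the part of that library in the calls against SD was not tested. In the same set, 26 were called in SZ-A 600 against HFD (29.6% of all genes) and 10 in SZ-A 600 against SD (2.51%). Within the 21 libraries with more of it edgeR called no member in any of the 3 comparisons, with 285, 394 and 0 members at an unadjusted p under 0.05, and 1.59%, 0.0183% and 0.00458% of all genes called. Without the 2 libraries, that set gave 1 member in HFD against SD (5.32% of all genes) and none in the others. With the set as a term beside group, 171 members were called in HFD against SD (35.3% of all genes), 174 in SZ-A 600 against HFD (21.4%) and 0 in SZ-A 600 against SD (4.37%).

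**Figure D5:**
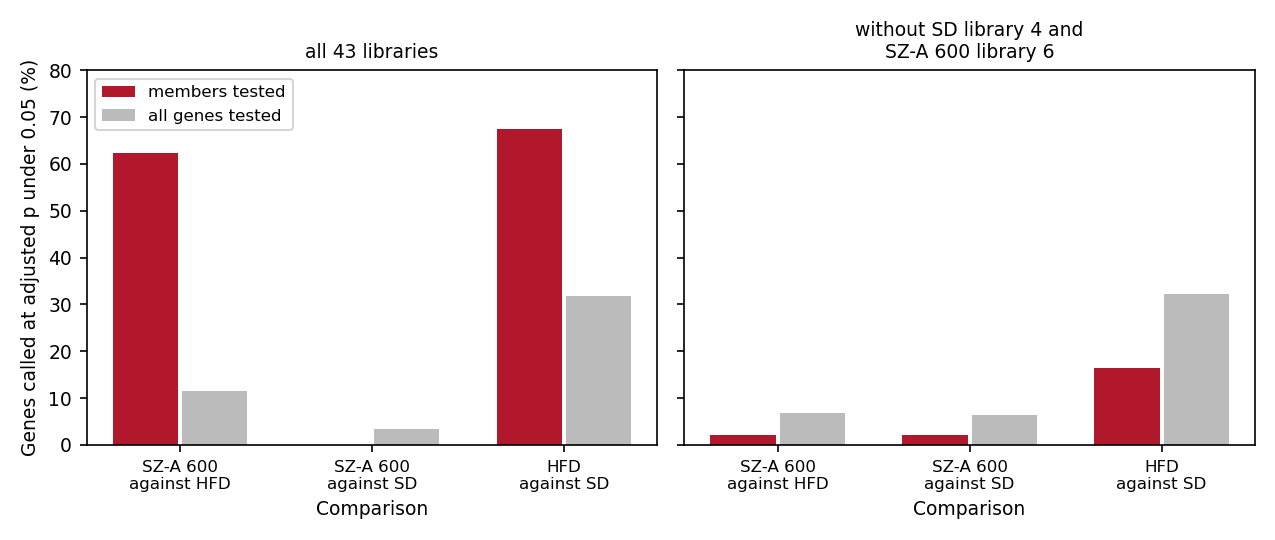
Percent of the profile's genes kept by the filter, and of all genes, called in each comparison (edgeR adjusted p under 0.05), with all 43 libraries and without SZ-A 600 library 6 and SD library 4. In HFD against SD the profile stands at 67.5% with all libraries and at 16.5% without the 2, while all genes stand at 31.7% and 32.2%.

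Single genes followed the same course. With all libraries the edgeR log2 fold change of Foxj1, whose level chose the 2 libraries, was -7.06 in HFD against SD and 7.29 in SZ-A 600 against HFD, and that of Lrp2, which met the rule, was -4.63 and 4.51; these follow from the choice. Without the 2 libraries the edgeR log2 fold change of Foxj1 was -3.55 in HFD against SD (adjusted p = 0.00597) and -3.56 in SZ-A 600 against HFD (adjusted p = 0.0639), and without SD library 1 as well the HFD against SD value was 0.01 (adjusted p = 0.997). Foxj1 was then at most 0.0559 CPM in SZ-A 600 libraries, below the level of 3 counts. Lrp2 had edgeR log2 fold changes of -0.59 (adjusted p = 0.658) and 0.99 (adjusted p = 0.510) without the 2. Adgrg2 kept its call between HFD and SD in these fits: its edgeR log2 fold change was -3.17 (SE 0.82, adjusted p = 0.00344) with all libraries, -2.28 (SE 0.61, adjusted p = 0.00443) without the 2 and -2.27 (SE 0.64, adjusted p = 0.00745) without SD library 1 as well. Between SZ-A 600 and HFD libraries its edgeR log2 fold change was 2.94 (SE 0.78, adjusted p = 0.0161) with all libraries and 0.81 (adjusted p = 0.389) without the 2. Within the 21 libraries with more small noncoding RNA, Adgrg2 was not called in HFD against SD, with an edgeR log2 fold change of -2.60 (adjusted p = 0.172), and -1.38 (adjusted p = 0.229) without the 2 libraries.

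Between HFD and SD libraries, 19 members were called both without the 2 libraries and without SD library 1 as well. Each of these fits kept 363 members, and by itself called 32.2% and 31.7% of all genes. The share of all genes called in both fits was not computed, so nothing is read from the 19 as a count. The 19 include all 8 that were higher in HFD without the 2. Those named here were picked after their values were seen. Among the higher ones, Tspan33 changed by 2.41 on the log2 scale without the 2 (edgeR adjusted p = 0.000848). It changed by 2.71 (edgeR adjusted p = 0.000989) without SD library 1 as well. The others named were lower. Cfap54, a central pair gene, changed by -1.78 on the log2 scale without the 2 (edgeR adjusted p = 0.000872) and by -1.46 when SD library 1 was left out as well (adjusted p = 0.00634). Rdh16, a retinol dehydrogenase, had -2.70 (adjusted p = 0.00108) and -2.51 (adjusted p = 0.00348) in the same edgeR fits, and Slc44a4, a thiamine and choline transporter, and Clic6, a chloride channel protein, were lower in HFD in both. Slc44a4 ranged from 0 to 0.820 CPM in HFD libraries (median 0), against 1.09 to 3.68 CPM in the other 6 SD libraries (median 1.74). These levels are a small fraction of the 70.5 CPM in SZ-A 600 library 6 and 50.3 CPM in SD library 4.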

How the data were processed

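RNA was extracted with TRIzol, selected by poly(A) and made into strand-specific libraries read as 150 bp pairs, per the labels' protocols. The authors deposited a table of whole-number counts and a table of FPKM for each gene and library, per the file headers; the aligner, the counter and its strand setting are not named in the labels. The submitters' processing notes name mm10, but the start or end of only 2.86% of 52071 genes matched on the same chromosome equals that in the GRCm38 annotation, so no gene coordinates from the files are printed; promoter coordinates are those of RefSeq on GRCm38.p6.

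From the deposited counts, CPM was computed over each column's total. Group comparisons used edgeR 4.0.16 (R 4.3.3): filterByExpr, TMM scaling and the quasi-likelihood test, with 1 term per group over all 43 libraries and Benjamini-Hochberg adjustment over all genes kept. DESeq2 1.42.0, other scalings and filters, library sets, the replicate block and left-out libraries were alternatives. The code was tested on simulated data. No 2 libraries held identical values.

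The genes of the profile and the gene lists were chosen with earlier results of these data known. Genes are named by rule: Foxj1, Adgrg2 and Lrp2, the 10 members with the highest mean FPKM, up to 4 such members per role list, all members of the regulator, steroid and duct factor lists, the 5 largest and 5 smallest ratios, and the 3 genes on each side of a threshold; other genes named were chosen after their values were seen, as was the brush border list. Some genes that the rule names are not reported here. Some symbols on the lists are older or newer names of genes in the files and were matched by synonym.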

Additional observations from a re-analysis of the deposited data

Results flagged for a closer look

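Within each of the 5 groups, a library was picked out when its gap to the nearest other library exceeded Dixon's 95% critical share of the group's range, for 5 measures and so 25 groups. For normally distributed values, chance alone does this in about 1 of 20 groups. The values here are CPM without a log scale and the measures share genes, so that rate need not hold. A library was picked out 16 times, and the cases of SZ-A 600 library 6 and SD library 4 follow from how these libraries were chosen. In SZ-A 600 library 6 these were the summed CPM of the 524 genes (41420) and of the 58 axoneme genes (6231), Foxj1 (432.6 CPM), Adgrg2 (1271 CPM) and Lrp2 (418.4 CPM). In SD library 4 they were 26720 and 3198 CPM for the sums, 273.5 CPM of Foxj1, 822.9 of Adgrg2 and 376.9 of Lrp2.

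Libraries not chosen by the rule were picked out as well. SZ-A 400 library 6 stood apart from its group in the sum of the 524 genes (14370 CPM), in axoneme genes (126.5 CPM against at most 61.9 CPM) and in Lrp2 (88.73 CPM). SZ-A 400 library 4 stood apart in Foxj1 with 3.99 CPM, HFD library 6 in Lrp2 with 6.644 CPM and SZ-A 200 library 4 in Lrp2 with 8.655 CPM.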

How the results depend on the processing

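The number of genes in the profile was 413 to 701 with TMM-scaled CPM, a level of 5 CPM, folds of 10 or 50, or the median of all 41 other libraries. It was 342 at 20 CPM, 155 with more than 10 FPKM in place of CPM and 218 against the maximum of the 14 others. The median ratio between the 2 libraries was 1.61 with TMM scaling and 1.68 in FPKM. In HFD against SD libraries the members called, 256 as reported, were 112 at an adjusted p under 0.01, 110 with at least 1 CPM in 7 libraries, 135 by DESeq2, 60 without SD library 4 and SZ-A 600 library 6, 77 when SZ-A 400 libraries 3 and 6 were left out too, 151 within the libraries with less small noncoding RNA, 0 within those with more and 1 within those without the 2 libraries. In SZ-A 600 against HFD libraries, 236 as reported became 30, 106, 57, 8, 19, 26, 0 and 0 under the same alternatives, and 124 with only the 2 groups fitted. In SZ-A 600 against SD libraries, 0 as reported became 52 by DESeq2, 8 without the 2 libraries, 23 without the 4 and 10 within the libraries with less small noncoding RNA. Of all genes, HFD against SD gave 3462 of 20218 at an adjusted p under 0.01 and 7145 of 20218 by DESeq2. With at least 1 CPM in 7 libraries it gave 6175 of 15964. For SZ-A 600 against HFD these were 298 of 20218, 3048 of 19042 and 2317 of 15964, and 2427 of 17520 with only the 2 groups fitted. DESeq2 called 1595 of 19042 genes in SZ-A 600 against SD. DESeq2 replaces outlying counts by construction, and fewer libraries enter the fits that leave some out; other causes were not tested.

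Alternatives chosen after seeing the data left out libraries that the choice of genes used, so nothing is read from their counts. Without SD library 4 alone, 10 members were called in HFD against SD and 42 in SZ-A 600 against SD. Without SZ-A 600 library 6 alone, 0 were called in SZ-A 600 against HFD and 243 in SZ-A 600 against SD. Without SD libraries 1 and 4 and SZ-A 600 library 6, the counts were 43, 7 and 9 for HFD against SD, SZ-A 600 against HFD and SZ-A 600 against SD.

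With the replicate number as a block the counts were 119, 13 and 2 of 379 members in the same order. Of all 20218 genes, 10172, 3736 and 4170 were called in that fit. Same-numbered libraries correlated at -0.19 to 0.32 in HFD and SD (3 of 7 pairs over 0.1). The range was -0.36 to 0.41 in SZ-A 600 and HFD (7 of 9 pairs) and -0.28 to 0.36 in SZ-A 600 and SD (3 of 7 pairs). In none of the 3 was every pair over 0.1, and in each only 1 library of the first-named group correlated best with its own number, so the labels' numbers were not taken to pair them. Median correlations were 0.058, 0.192 and -0.016 for same-numbered pairs, against 0.024, 0.005 and -0.033 over all pairs. Libraries with less small noncoding RNA were numbers 1 and 2 in SD and 1 to 5 in every other group. The block thus partly follows those sets, and what else the numbers stand for was not tested.

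For Foxj1, Adgrg2 and Lrp2, log2 fold changes in HFD against SD and in SZ-A 600 against HFD were compared with those under alternatives. There, 46 values kept direction and call, 29 kept direction but lost the call, and 11 changed sign. SZ-A 600 against SD is not in this count. In it the edgeR log2 fold change of Foxj1 was 0.23 with all libraries, -7.11 without the 2 and -10.6 without SZ-A 600 library 6 alone. Without SD library 1 and the 2 it was -3.56, so the -7.11 rested in part on SD library 1. In the other SZ-A 600 libraries Foxj1 was 0 to 0.0559 CPM, below the level of 3 counts. The size of each Foxj1 change that leaves out SZ-A 600 library 6 thus depends on values at that limit. Foxj1 in HFD against SD became 1.27 within the libraries with more small noncoding RNA without the 2, and 0.0050 without SD libraries 1 and 4 and SZ-A 600 library 6; Lrp2 became 1.07 and 0.56. Foxj1 in SZ-A 600 against HFD became -3.56 without the 2 libraries, -3.55 without the 4, -1.91 within the libraries with less small noncoding RNA, -4.34 within those with more without the 2, -3.52 without SZ-A 600 library 6 alone, -3.56 without SD library 1 and the 2, and -3.16 by DESeq2.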

Other observations

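Genes that passed the limits in SD library 4 and not in SZ-A 600 library 6 numbered 28, and 9 of them had more than 5 CPM and 10-fold in SZ-A 600 library 6 as well. Arg1, an arginase of macrophages, had 0.428 CPM in SZ-A 600 library 6 and 174 CPM in SD library 4, and Spp1 (osteopontin) had 51.5 and 313 CPM. The lymphoid chemokine gene Ccl21a had 25.2 and 115 CPM, and antibody segments such as Igkv3-2 had 0 and 39.4 CPM. Their median ratio, SZ-A 600 library 6 over SD library 4, was 0.142, whereas the 228 genes that passed in SZ-A 600 library 6 alone had a median ratio of 2.02. With B cell marker genes at 117 and 875 CPM and macrophage marker genes at 857 and 1965 CPM, SD library 4 held more of both lists than SZ-A 600 library 6. These genes were named after their values were seen.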
